A study of Canis lupus familiaris with 12 samples.

Results

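The genes described here are 89 transporter and pump genes among the 4325 genes measured: 55 solute carriers, 14 ABC proteins and 20 genes of the ion-pumping ATPases. They were taken by a rule on symbols that uses no measured value, though it was chosen with earlier results of these data known. The rule took every probe with a single symbol of the SLC or ABCA to ABCG series. It also took single symbols beginning ATP1A, ATP1B, ATP2A, ATP2B, ATP4A or ATP6, and left out the glucose transporters SLC2A1 and SLC2A3. RNA came from MDCK cells, an epithelial line from dog kidney, and was hybridised on the Oncochip, a 2-colour cDNA array. The 3 transfectants carried Snail (a zinc finger repressor), Slug (a related zinc finger repressor) or E47 (a helix-loop-helix factor), each against MDCK-CMV cells as the control, and all are repressors of CDH1, the gene of E-cadherin. Each transfectant had 2 numbered samples and 4 arrays, 1 titled Cy5 and 1 titled Cy3 per sample, which gives 12 arrays. The labels give no time after transfection and no number of clones, and nothing in them says that samples 1 and 2 came from different cultures; a p-value therefore covers the spread between samples alone, and that spread may be technical.

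Kidney tubule cells are known for moving ions and solutes across a sheet of cells that has an apical and a basal side. Primary pumps, which split ATP, set up the gradients: the Na,K-ATPase at the basolateral membrane, the H,K-ATPase and the V-ATPase in acid secretion, and calcium ATPases that clear calcium from the cytosol. Solute carriers use such gradients or let substrates exchange, and ABC proteins move lipids, drugs and conjugates at the cost of ATP.

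Every value is a log2 ratio of transfectant to control, so it holds no level, and levels of different genes cannot be compared. The direction is assumed. Of 6 pairs of arrays that share a transfectant and a titled dye, 5 correlated below -0.3 as deposited, so the titles do not settle the sign, and 5 of 12 arrays were turned. In the turned values CDH1 lies below the control on each of the 12 arrays (-2.78 to -1.28) because it was used to set the sign. Were the sign of a transfectant the opposite, every "higher" and "lower" against the control would be exchanged, and the counts would stay. In such RNA from many cells, fewer cells of a type and less RNA per cell cannot be told apart. The probes carry human gene identifiers and met dog RNA, and near-identical members of a family may share signal.

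Most transporter genes lay close to the control in each transfectant, as did most of all genes tested. Within 0.5 of 0 on the log2 scale were 74 of 80 genes tested in Snail (92.5%, against 87.3% of all genes), 72 of 86 in Slug (83.7%, against 77.6%) and 77 of 84 in E47 (91.7%, against 89%). The median log2 ratio of the transporter genes was -0.08 in Snail, -0.06 in Slug and -0.02 in E47, beside -0.05, 0.02 and 0.01 over all genes. A difference of at least 2-fold with an adjusted p under 0.05 was reached by 5 genes in Slug (ATP4A, ATP6V0C, ATP6V0D1, SLC25A32 and SLC44A1) and by 2 in E47 (ATP6V0C and ATP1B1). The shares at least 2-fold from the control were 5.81% of the transporter genes and 5.21% of all genes in Slug. In E47 they were 2.38% and 2.34%, each near the background. In Snail no transporter gene was 2-fold from the control, beside 2.68% of all genes. Too few values for a test left out 9 genes in Snail (ABCF1, SLC1A3, SLC24A4, SLC25A26, SLC26A3, SLC28A2, SLC39A9, SLC61A1 and SLC7A9), 3 in Slug (ABCF1, SLC1A2 and SLC38A6) and 5 in E47 (ABCD2, ATP6V1B2, SLC25A14, SLC30A3 and SLC6A16). The samples of a transfectant differed by a median of 0.266 in Snail, 0.184 in Slug and 0.22 in E47 over these genes. Across genes the 2 Snail samples correlated less (r = 0.26 over 80 genes) than those of Slug (r = 0.72 over 86) and E47 (r = 0.66 over 84). Genes are not independent replicates. These values used the turned arrays, and the turning was set from the data, so the positive sign of r is no separate sign of agreement.

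At a limma adjusted p under 0.05 (Benjamini-Hochberg over all genes tested), 3 of 80 transporter genes changed in Snail (3.75%), against a background of 7.22% of all genes. Of these, 0 were higher (background 2.15%) and 3 lower (background 5.07%); at an unadjusted p under 0.05 there were 5 higher and 14 lower. The split was 1 higher and 4 lower with all arrays scaled to 1 spread, and 1 higher and 2 lower with array medians set to 0. In Slug 13 of 86 changed (15.1%), against a background of 21.8%: 6 were higher (background 12.2%) and 7 lower (background 9.62%). In E47 6 of 84 changed (7.14%), against a background of 5.3%: 5 were higher (background 3.81%) and 1 lower (background 1.49%). The shares in Snail and Slug were below those of all genes and the share in E47 was slightly above, with no test of the difference. These counts depended on single samples: with 1 sample left out at a time they ranged from 0 to 4 in Snail, from 6 to 15 in Slug and from 0 to 6 in E47, where the 0 in Snail came without Snail replicate 2 (14 genes at an unadjusted p under 0.05) and the 0 in E47 came without E47 replicate 2 (10 genes).

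**Figure D1:**
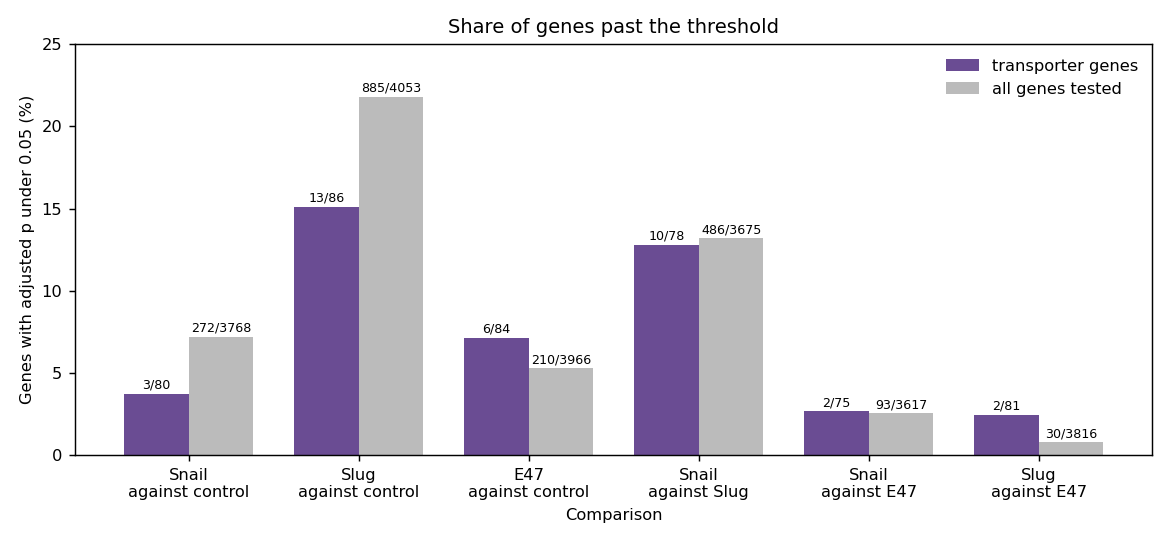
Bars give the percentage of genes with a limma adjusted p under 0.05 in each of 6 comparisons (y axis, percent, from 0), for the transporter genes and for all genes tested, with the counts above each bar. The transporter share lies below the background in Snail (3.75% against 7.22%) and Slug (15.1% against 21.8%), and the highest bars are those of Slug against control.

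The genes were grouped into 12 protein families by symbol. In 7 families at least 1 gene changed in at least 1 transfectant. The other 5 held 30 genes in all: calcium ATPases, sugar carriers, amino acid carriers, ion cotransporters, and nucleoside and thiamine carriers. None of these passed the limma threshold against the control, which is how the 5 families were picked out, so it is no separate result. The background was 7.22% in Snail, 21.8% in Slug and 5.3% in E47. In the order above, 3, 9, 8, 1 and 4 of their genes were tested in Snail. The numbers tested were 3, 9, 8, 3 and 5 in Slug and 3, 9, 9, 3 and 5 in E47. At an unadjusted p under 0.05 the 5 families gave, in that order, 1, 2, 2, 0 and 2 genes for Snail. They gave 0, 2, 1, 1 and 1 for Slug, and 2, 3, 3, 0 and 1 for E47.

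**Figure D2:**
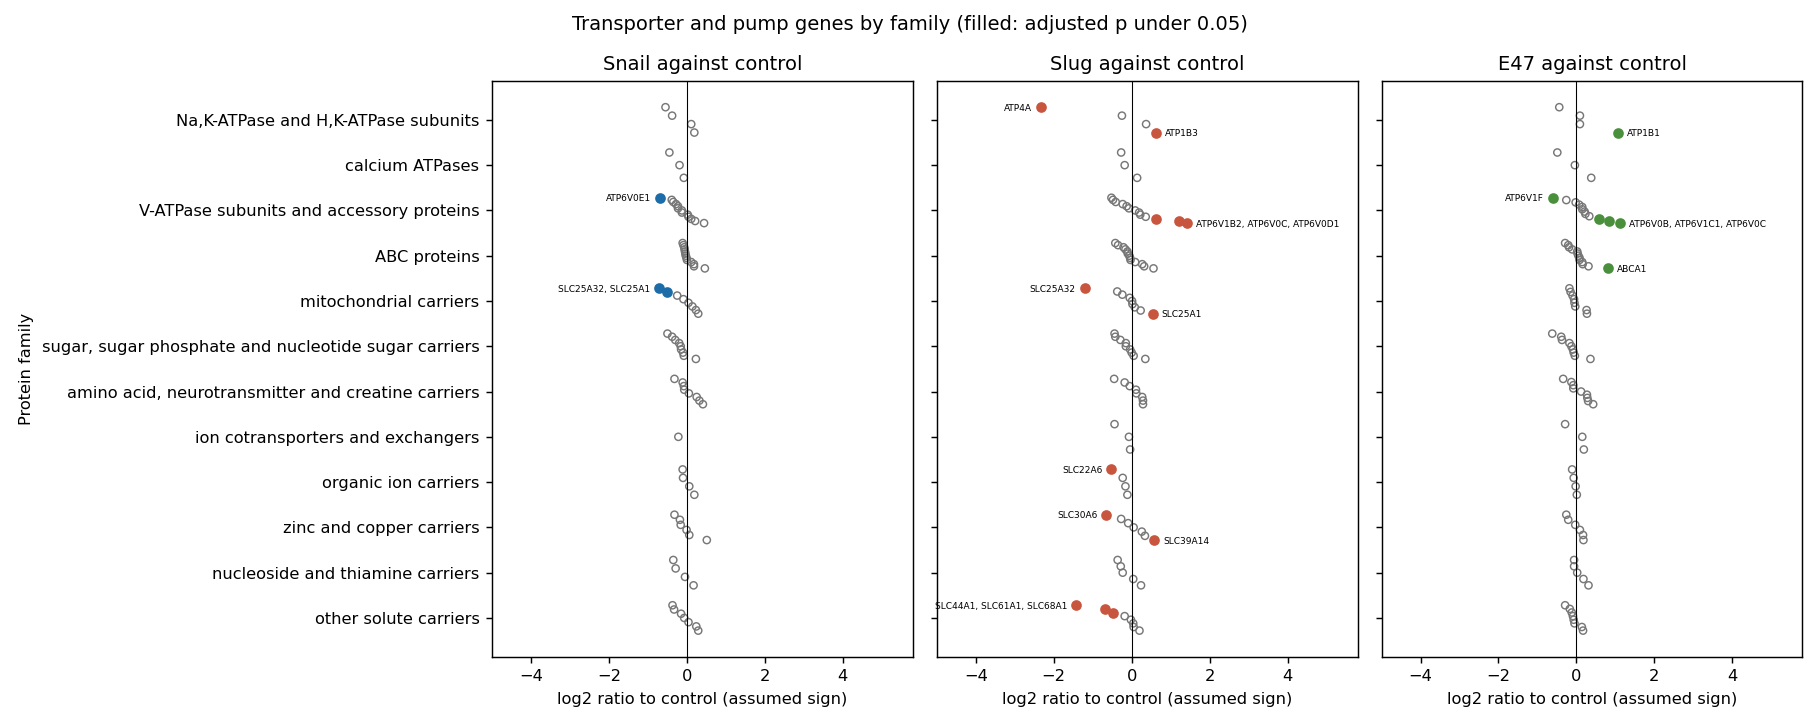
Each point is 1 transporter gene, placed by its mean log2 ratio to control (x axis, assumed sign) within its protein family (y axis), with 1 panel per transfectant. Filled and named points have a limma adjusted p under 0.05, and ATP4A in Slug at -2.32 is the point farthest from 0.

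Among the subunits of the Na,K-ATPase and the gastric-type H,K-ATPase, 4 genes were measured: ATP4A and the beta subunits ATP1B1, ATP1B2 and ATP1B3. No ATP1A gene, which would encode the catalytic alpha subunit of the Na,K-ATPase, is among the genes named by a probe here. Against the control, ATP4A fell and ATP1B3 rose in Slug (50% of 4, background 21.8%), and ATP1B1 rose in E47 (25%, background 5.3%). In Snail 0 of 4 passed the limma threshold (background 7.22%), and 2 were lower at an unadjusted p under 0.05.

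ATP4A encodes the catalytic alpha subunit of the H,K-ATPase, the pump that trades protons for potassium in gastric acid secretion and is also described in the kidney collecting duct. Its log2 ratios in Slug were -2.63 and -2.24 in sample 1 (the array titled Cy5 first, as in every such list here) and -2.29 and -2.13 in sample 2. The 4 values in Snail were 0.57, 0.34, 0.19 and -0.67, and those in E47 were -0.32, -0.44, -0.60 and -0.41. The Slug arrays stand apart from all others without overlap, all 4 E47 arrays lie a little below the control, and the Snail arrays straddle it. The mean in Slug was -2.32 ± 0.17 (SE, n = 2; adjusted p = 0.000512), a 5.01-fold difference and the 7th lowest of 4053 genes tested in Slug. The means in Snail (0.11, adjusted p = 0.764) and E47 (-0.44, adjusted p = 0.207) did not pass. The Slug call was kept in 13 of 13 alternative settings. All of them read the same 1 spot of 1 clone, so they do not test which gene the spot measures.

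ATP1B1 encodes the beta 1 subunit, which carries the Na,K-ATPase to the plasma membrane and is also known for adhesion between epithelial cells. Its 4 log2 ratios were 1.18, 0.38, 1.34 and 1.36 in E47, 0.65, 0.97, 0.27 and -0.43 in Slug, and -0.02, 0.14, 0.22 and 0.44 in Snail. The E47 arrays were high apart from the sample 1 array titled Cy3, which overlaps with Slug and Snail. The E47 mean was 1.06 ± 0.23 (SE, n = 2; adjusted p = 0.0348), 2.09-fold, while Slug (0.37, adjusted p = 0.275) and Snail (0.19, adjusted p = 0.665) did not pass. Compared directly, Snail minus E47 was -0.87 ± 0.32 (adjusted p = 0.175) and Slug minus E47 -0.70 ± 0.32 (adjusted p = 0.334), neither past the threshold. The E47 call was lost without E47 replicate 1 (1.35, adjusted p = 0.0634), without E47 replicate 2 (0.78, adjusted p = 0.458) and without either Snail replicate (1.06, adjusted p = 0.0642).

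ATP1B3 encodes the beta 3 subunit. Its log2 ratios in Slug lay within a narrow band, 0.60, 0.56, 0.61 and 0.70. In Snail all 4 were below the control, at -0.85, -0.65, -0.40 and -0.30, and in E47 they were 0.24, -0.28, 0.30 and 0.10. The 3 groups did not overlap, with Slug highest and Snail lowest. The mean was 0.62 ± 0.14 in Slug (SE, n = 2; adjusted p = 0.0193; 1.53-fold), -0.55 in Snail (adjusted p = 0.0572, not past the threshold) and 0.09 in E47. The Slug call was lost without Slug replicate 1 (0.65, adjusted p = 0.0969) or Slug replicate 2 (0.58, adjusted p = 0.1). ATP1B2, the beta 2 subunit, passed in no transfectant, with means of -0.38 in Snail, -0.25 in Slug and 0.09 in E47.

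**Figure D3:**
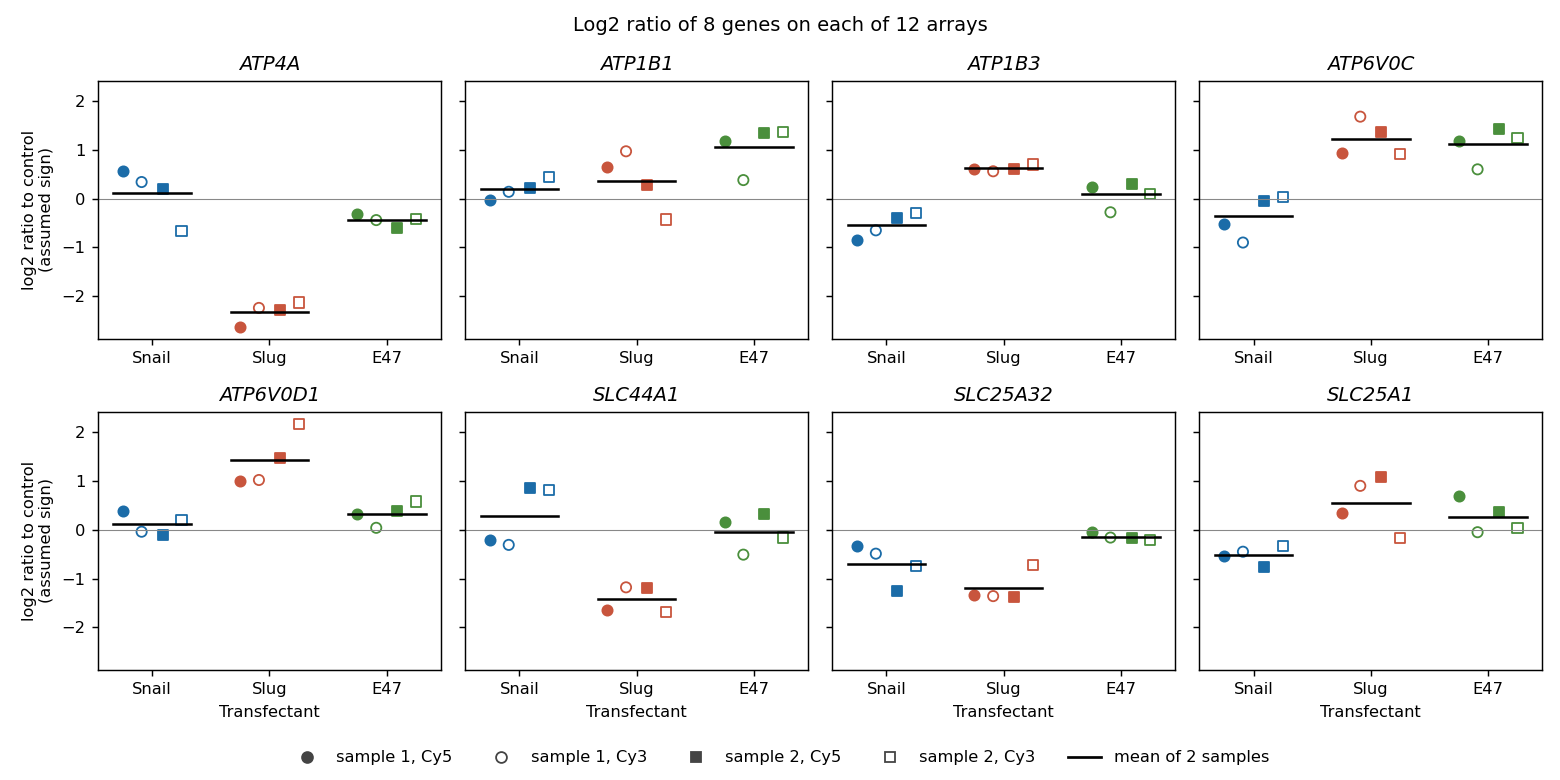
Points give the log2 ratio to control (y axis, assumed sign) of 8 genes on each of the 12 arrays, by transfectant (x axis), with circles for sample 1, squares for sample 2, filled points for arrays titled Cy5, open points for arrays titled Cy3 and a line at the mean of 2 samples. ATP4A and SLC44A1 lie below all other arrays in Slug, while ATP6V0C lies high in both Slug and E47.

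The V-ATPase acidifies endosomes, lysosomes and, in some kidney cells, the urine; a cytosolic V1 sector splits ATP and a membrane V0 sector carries the protons. Against the control 1 of 13 genes fell in Snail (7.69%, background 7.22%), 3 of 13 rose in Slug (23.1%, background 21.8%), and 3 rose and 1 fell of 12 tested in E47 (33.3%, background 5.3%). The shares in Snail and Slug are near those of all genes, and the share in E47 is above, with no test of the difference. The median log2 ratio of the family was -0.13 in Snail, 0.09 in Slug and 0.18 in E47. ATP6V0C was called in both Slug and E47.

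In the V0 sector, ATP6V0C encodes the proteolipid c subunit, which forms the rotor ring that binds protons. Its log2 ratios were 0.94, 1.68, 1.36 and 0.91 in Slug, 1.19, 0.60, 1.43 and 1.25 in E47, and -0.51, -0.90, -0.04 and 0.04 in Snail. All 8 Slug and E47 arrays lay above all 4 Snail arrays. The means were 1.22 ± 0.19 in Slug (SE, n = 2; adjusted p = 0.00456; 2.33-fold), 1.12 ± 0.19 in E47 (adjusted p = 0.0162; 2.17-fold) and -0.35 in Snail (adjusted p = 0.307). The Slug call was kept in 13 of 13 alternatives, while the E47 call was lost without E47 replicate 2 (0.90, adjusted p = 0.259).

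ATP6V0D1 encodes the d subunit, which joins the ring to the central stalk. In Slug it read 0.99 and 1.02 in sample 1 and 1.48 and 2.17 in sample 2; the other transfectants gave 0.38, -0.04, -0.10 and 0.20 (Snail) and 0.32, 0.04, 0.38 and 0.58 (E47). The Slug arrays were above all others, with sample 2 the higher of the Slug samples. The mean of 1.42 ± 0.19 (SE, n = 2; adjusted p = 0.00295; 2.67-fold) was the largest increase among the transporter genes in Slug, and the call was kept in 13 of 13 alternatives. Snail (0.11, adjusted p = 0.782) and E47 (0.33, adjusted p = 0.413) did not pass.

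ATP6V0B, the c'' proteolipid of the same ring, rose in E47, with 0.85, 0.45, 0.36 and 0.67 on the arrays and a mean of 0.58 ± 0.13 (SE, n = 2; adjusted p = 0.0478). That value is close to the threshold and the call was lost without E47 replicate 1 (0.51, adjusted p = 0.324), without E47 replicate 2 (0.65, adjusted p = 0.334) and without either Snail replicate (0.58, adjusted p = 0.0637). ATP6V0E1, the small e subunit, was the V-ATPase gene that fell in Snail. Its arrays read -0.83, -0.82, -0.63 and -0.53 in Snail, -0.23, -0.19, -0.84 and 0.34 in Slug, and 0.06, -0.04, 0.06 and 0.18 in E47. Snail and E47 did not overlap, and Slug spread over both. The Snail mean was -0.70 ± 0.12 (SE, n = 2; adjusted p = 0.014; 1.63-fold), and the call was lost without Snail replicate 1 (-0.58, adjusted p = 0.125) or Snail replicate 2 (-0.83, adjusted p = 0.0774).

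In the V1 sector, ATP6V1C1 encodes the C subunit of the outer stalk, which takes part in joining V1 to V0. The E47 arrays gave 1.04, 0.39, 0.99 and 0.91, the Slug arrays -0.56, -0.69, -0.39 and -0.30, and the Snail arrays 0.42, -0.02, 0.93 and 0.42. Slug lay below the control on every array, apart from E47 and Snail. The gene rose in E47 (0.83 ± 0.16, SE, n = 2; adjusted p = 0.0239); the call was lost without E47 replicate 1 (0.95, adjusted p = 0.0933) or E47 replicate 2 (0.72, adjusted p = 0.334). Slug (-0.48, adjusted p = 0.0614) and Snail (0.44, adjusted p = 0.132) did not pass, though Slug did without either Snail replicate (adjusted p = 0.0477).

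ATP6V1B2, a B subunit of the ATP-splitting head, rose in Slug with a mean of 0.63 ± 0.14 (SE, n = 2; adjusted p = 0.0196). Its 4 arrays, 0.51, 0.84, 1.31 and -0.12, spread more than the sample means of 0.67 and 0.60, since the arrays of sample 2 lie on both sides of the control. The call was lost without Slug replicate 1 (0.60, adjusted p = 0.13) or Slug replicate 2 (0.67, adjusted p = 0.0709), and the gene was not tested in E47. ATP6V1F, a central stalk subunit, fell in E47, with -0.68, -0.76, -0.60 and -0.37 on the arrays and a mean of -0.60 ± 0.13 (SE, n = 2; adjusted p = 0.0355). That call was lost without E47 replicate 1 (-0.49, adjusted p = 0.323), without E47 replicate 2 (-0.72, adjusted p = 0.234) and without either Snail replicate (-0.60, adjusted p = 0.0505). ATP6V1A, the catalytic A subunit, was picked out after its values were seen: its Slug arrays read -1.30 and -1.40 in sample 1 and 0.40 and 0.65 in sample 2, so that the mean of -0.41 (adjusted p = 0.453) describes neither sample; without Slug replicate 2 it was -1.35 (adjusted p = 0.00948).

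**Figure D4:**
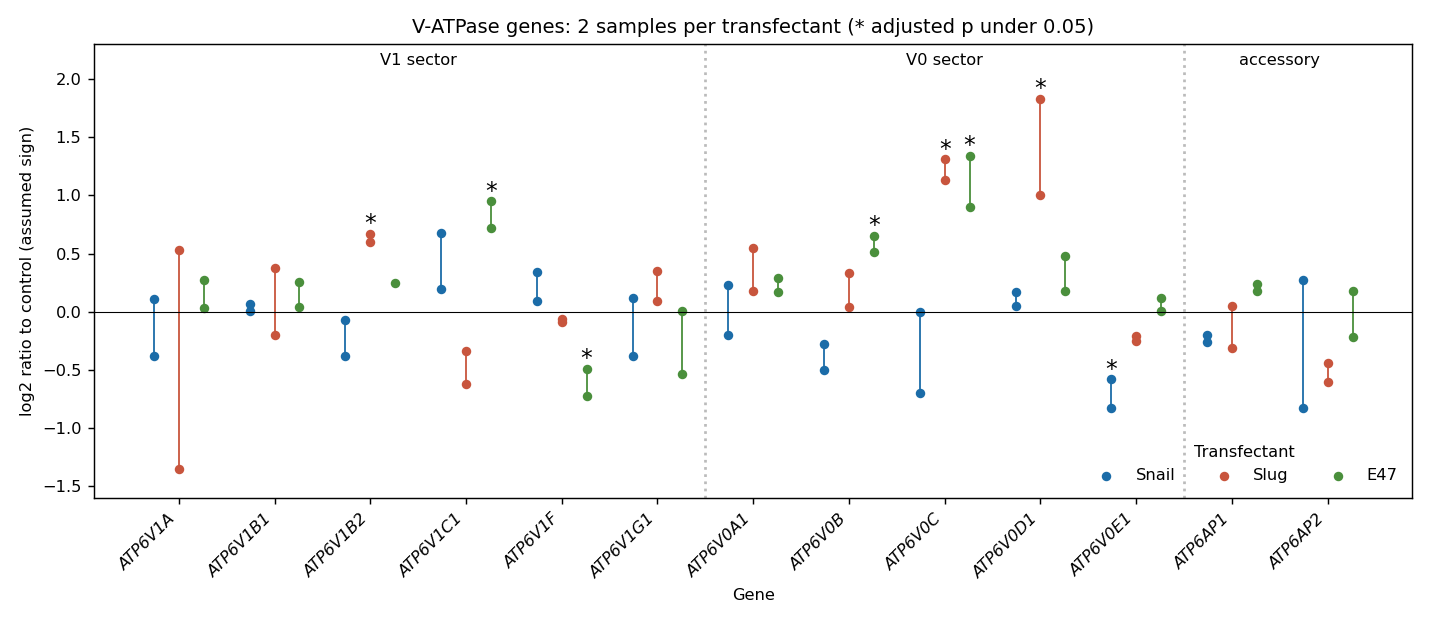
Points give the log2 ratio to control (y axis, assumed sign) of each sample for 13 V-ATPase genes (x axis), 6 of the V1 sector, 5 of the V0 sector and 2 accessory, with a line joining the samples of a transfectant and a star where the limma adjusted p is under 0.05. ATP6V0C and ATP6V0D1 are the highest in Slug, and the samples of ATP6V1A in Slug lie on opposite sides of 0.

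The set held 3 calcium ATPase genes, ATP2A3 (a pump of the endoplasmic reticulum) and ATP2B3 and ATP2B4 (pumps of the plasma membrane). None of them passed in any transfectant. ATP2A3 had means of -0.45 in Snail, -0.27 in Slug and -0.49 in E47, with adjusted p of 0.182, 0.313 and 0.174. ATP2B4 was the nearest to the threshold, in E47, where its 4 arrays read 0.45, 0.39, 0.35 and 0.32 (mean 0.38, adjusted p = 0.128). Those arrays are close to each other, and the Slug arrays of the same gene ran from -0.67 to 0.51. A calcium pump whose symbol lies outside the rule, ATP2C1, was lower in Snail (-0.71, limma adjusted p = 0.0156) and in Slug (-0.72, adjusted p = 0.00771). In E47 ATP2C1 read -0.53 (adjusted p = 0.0546). ATP2C1 was picked out after its values were seen, and no result with a sample left out is given for it.

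Of the ABC proteins, 0 of 13 tested passed the limma threshold in Snail (background 7.22%) and 0 of 13 in Slug (background 21.8%). In E47 1 of 13 passed (7.69%, background 5.3%). At an unadjusted p under 0.05 the counts were 1, 4 and 1 in Snail, Slug and E47. The gene that passed was ABCA1, which exports cholesterol and phospholipid to apolipoproteins. Its arrays read 0.90, 0.50, 1.10 and 0.80 in E47, 0.57, 0.23, 0.64 and 0.39 in Snail, and -0.08, 0.02, 0.37 and -0.42 in Slug. All E47 and Snail arrays were above the control, E47 the higher with some overlap, and Slug lay around 0. The E47 mean was 0.82 ± 0.12 (SE, n = 2; adjusted p = 0.0112; 1.77-fold); Snail had 0.46 (adjusted p = 0.0673) and Slug -0.03. Without E47 replicate 2 the call was lost (0.70, adjusted p = 0.226).

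ABCB1, the drug efflux pump P-glycoprotein, did not pass in any transfectant. Its means were -0.01 in Snail, -0.42 in Slug (adjusted p = 0.0873) and 0.31 in E47 (adjusted p = 0.319), and all 4 Slug arrays were below the control (-0.73 to -0.24). ABCC8, a regulatory subunit of a potassium channel and not a pump, had the highest mean of the family in Slug (0.56, adjusted p = 0.0661), which rests on 1 array: the sample 1 array titled Cy3 read 1.84, beside 0.07, 0.13 and 0.18 on the other 3. The mean was 0.15 (adjusted p = 0.621) without Slug replicate 1 and 0.96 (adjusted p = 0.0122) without Slug replicate 2. The organic anion pumps ABCC2 and ABCC3 were within 0.21 of the control in every transfectant, at 0.11, -0.21 and 0.03 for ABCC2 and -0.11, -0.10 and -0.19 for ABCC3 in Snail, Slug and E47.

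The mitochondrial carriers of the SLC25 family move metabolites across the inner mitochondrial membrane, and 2 of 9 genes carried all the calls: SLC25A1 and SLC25A32. Both fell in Snail (2 of 8 tested, 25%, background 7.22%), and 1 rose and 1 fell in Slug (of 9, 22.2%, background 21.8%). In E47 0 of 8 passed (background 5.3%), also at an unadjusted p under 0.05. The other SLC25 genes lay between -0.37 and 0.29 in every transfectant.

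SLC25A32, a carrier of folate and flavin dinucleotide into mitochondria, read -1.33, -1.36, -1.38 and -0.73 in Slug, -0.33, -0.49, -1.26 and -0.74 in Snail, and -0.05, -0.16, -0.17 and -0.21 in E47. All 12 arrays lay below the control, with the E47 values nearest to 0 and apart from both other groups, which overlap. The gene fell in Slug (-1.20 ± 0.16, SE, n = 2; adjusted p = 0.00295; 2.3-fold) and in Snail (-0.71 ± 0.16, adjusted p = 0.0414; 1.63-fold), with E47 at -0.15 (adjusted p = 0.684). The Slug call was kept in 13 of 13 alternatives. The Snail call was lost without Snail replicate 2 (-0.41, adjusted p = 0.38) and without either E47 replicate (-0.71, adjusted p = 0.0596).

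SLC25A1, the citrate carrier that supplies carbon for lipid synthesis, is the transporter gene that passed with opposite signs in Snail and Slug. Its arrays were -0.54, -0.45, -0.77 and -0.33 in Snail, 0.35, 0.90, 1.09 and -0.17 in Slug, and 0.69, -0.05, 0.36 and 0.04 in E47. Snail lay below all other arrays, and the sample 2 array titled Cy3 was the low value of Slug. The Snail mean was -0.52 ± 0.12 (SE, n = 2; adjusted p = 0.0393), lost without Snail replicate 1 (-0.55, adjusted p = 0.153), Snail replicate 2 (-0.49, adjusted p = 0.26) or either E47 replicate (-0.52, adjusted p = 0.0686). The Slug mean was 0.54 ± 0.12 (SE, n = 2; adjusted p = 0.017), lost without Slug replicate 1 (0.46, adjusted p = 0.15) or Slug replicate 2 (0.62, adjusted p = 0.0502).

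SLC44A1, a choline transporter-like protein of the plasma membrane, had the lowest mean of the solute carriers in Slug. The 4 log2 ratios there were -1.64, -1.18, -1.19 and -1.68, apart from every Snail array (-0.22, -0.31, 0.86 and 0.82) and every E47 array (0.15, -0.51, 0.32 and -0.16). The Snail samples disagreed with each other, sample 1 below and sample 2 above the control. The Slug mean was -1.42 ± 0.23 (SE, n = 2; adjusted p = 0.00561; 2.68-fold) and was kept in 13 of 13 alternatives, while Snail (0.29, adjusted p = 0.512) and E47 (-0.05, adjusted p = 0.944) did not pass.

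A further pair of genes in the mixed group of other solute carriers fell in Slug, which made 3 of 8 there (37.5%, background 21.8%). SLC61A1, a molybdate transporter, read -1.05, -0.77, -0.45 and -0.48 (mean -0.69 ± 0.16, SE, n = 2; adjusted p = 0.0237). Without Slug replicate 1 it was lost (-0.47, adjusted p = 0.204), and it was not tested in Snail. SLC68A1 read -0.74, -0.35, -0.49 and -0.33 (mean -0.48 ± 0.14, adjusted p = 0.043) and was lost without Slug replicate 1 (-0.41, adjusted p = 0.257), Slug replicate 2 (-0.55, adjusted p = 0.11) or either E47 replicate (-0.48, adjusted p = 0.056). In Snail and E47, 0 of 7 and 0 of 8 genes of this group passed the limma threshold (background 7.22% and 5.3%). At an unadjusted p under 0.05 there were 2 and 0.

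Among the carriers of zinc and copper, 1 of 7 rose and 1 fell in Slug (28.6% together, background 21.8%). In Snail and in E47 0 of 6 passed the limma threshold (background 7.22% and 5.3%), with 2 and 0 at an unadjusted p under 0.05. SLC39A14, which brings zinc, iron and manganese into the cell, rose in Slug: 0.74, 0.38, 0.92 and 0.25 on the arrays, mean 0.57 ± 0.13 (SE, n = 2; adjusted p = 0.0188). SLC30A6, a partner of zinc loading in the Golgi, fell in Slug: -0.25, -0.72, -1.05 and -0.60 on the arrays, mean -0.65 ± 0.15 (SE, n = 2; adjusted p = 0.019). The SLC39A14 call was lost without Slug replicate 1 (0.59, adjusted p = 0.108) or Slug replicate 2 (0.56, adjusted p = 0.0908), and the SLC30A6 call without Slug replicate 2 (-0.49, adjusted p = 0.142). The copper carrier SLC31A2 stood just outside the threshold in Snail, with 0.54, 0.23, 0.86 and 0.42 on the arrays, a mean of 0.51 and an adjusted p of 0.05 (0.0499 without either Slug replicate).

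Of the organic ion carriers, SLC22A6, the organic anion transporter of the proximal tubule, fell in Slug, with -0.36, -0.75, -0.42 and -0.56 on the arrays and a mean of -0.52 ± 0.13 (SE, n = 2; adjusted p = 0.0281). The call was lost without Slug replicate 1 (-0.49, adjusted p = 0.175) or Slug replicate 2 (-0.55, adjusted p = 0.101). It was the gene of 4 in this family that passed (25%, background 21.8% in Slug). The other values of the family ran from -0.23 to 0.19 over the 3 transfectants. In Snail and in E47 0 of 4 passed (background 7.22% and 5.3%), also at an unadjusted p under 0.05.

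In the families without a call, values lay near the control. The 9 sugar carriers ran from -0.50 to 0.23 in Snail, from -0.44 to 0.35 in Slug and from -0.62 to 0.36 in E47. SLC37A3 was the lowest in Snail and E47, and the glucose transporter SLC2A8 the highest in all 3 transfectants. The clones of SLC2A8 differed: 1 clone gave 0.34, 0.00 and 0.13 in Snail, Slug and E47, and the other 0.12, 0.71 and 0.59. The amino acid carriers ran from -0.32 to 0.41 in Snail, from -0.45 to 0.29 in Slug and from -0.34 to 0.43 in E47. The nearest to the threshold among them was the glutamate transporter SLC1A3 in Slug (-0.45, adjusted p = 0.0544). The lysosomal arginine sensor SLC38A9 was the highest in Snail and E47. The ion exchanger SLC26A3 had -0.44 in Slug (adjusted p = 0.0675), and the nucleoside carrier SLC28A1 -0.36 (adjusted p = 0.0892).

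The transfectants were also compared with each other, with both signs as assumed. Snail against Slug gave 10 of 78 transporter genes (12.8%, background 13.2%), 4 higher in Snail (background 4.08%) and 6 lower (background 9.14%), a split of 2 and 5 with all arrays scaled to 1 spread. Snail against E47 gave 2 of 75 (2.67%, background 2.57%), 0 higher in Snail (background 0.166%) and 2 lower (background 2.41%; 1 and 4 with all arrays scaled to 1 spread), with 1 and 11 at an unadjusted p under 0.05. Slug against E47 gave 2 of 81 (2.47%, background 0.786%), 0 higher in Slug (background 0.262%) and 2 lower (background 0.524%), with 4 and 10 at an unadjusted p under 0.05. With the sign of Slug turned, Snail against Slug gave 6 (background 18.3%); with the sign of E47 turned, Snail against E47 gave 4 (background 9.87%) and Slug against E47 gave 17 (background 25.8%).

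Snail against Slug took in 4 of 13 V-ATPase genes (30.8%) and 2 of 4 Na,K-ATPase and H,K-ATPase genes (50%, background 13.2%). Snail against E47 took in 2 of 12 V-ATPase genes (16.7%, background 2.57%). Slug against E47 gave 1 of 12 V-ATPase genes (8.33%) and 1 of 4 Na,K-ATPase and H,K-ATPase genes (25%, background 0.786%). Calcium ATPases gave 0 of 3 in each pair (0, 1 and 1 at an unadjusted p under 0.05 in limma). The shares were not tested. ATP4A was 2.43 ± 0.25 higher in Snail than in Slug on the log2 scale (SE, n = 2 per group; adjusted p = 0.00416), which was kept in 13 of 13 alternatives, and its Slug minus E47 difference was -1.88 ± 0.25 (adjusted p = 0.0283), lost without Slug replicate 1 (-1.77, adjusted p = 0.0645), E47 replicate 1 (-1.82, adjusted p = 0.0789) or E47 replicate 2 (-1.95, adjusted p = 0.0689). ATP6V0C was lower in Snail than in Slug (-1.58 ± 0.27, adjusted p = 0.0134) and than in E47 (-1.47 ± 0.27, adjusted p = 0.0364), while Slug minus E47 was 0.10 (adjusted p = 0.896). Its Snail and Slug difference was lost without Snail replicate 1 (-1.23, adjusted p = 0.0536). The Snail and E47 difference was lost without any Snail or E47 replicate (adjusted p = 0.127 and 0.0592 without Snail replicate 1 and 2, and 0.0563 and 0.202 without E47 replicate 1 and 2; differences of -1.12, -1.82, -1.69 and -1.25).

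ATP6V0D1 was lower in Snail than in Slug (-1.31 ± 0.27, SE, n = 2 per group; adjusted p = 0.0236), lost without Snail replicate 1 (-1.37, adjusted p = 0.0787) or 2 (-1.24, adjusted p = 0.104), and its Slug minus E47 difference of 1.09 did not pass (adjusted p = 0.118). ATP6V0B was lower in Snail than in E47 (-0.97 ± 0.19, adjusted p = 0.0441), lost without any Snail or E47 replicate (-1.08 to -0.86, adjusted p = 0.122 to 0.202). ATP6V1C1 separated Slug from both others: Snail minus Slug was 0.92 ± 0.22 (adjusted p = 0.0337) and Slug minus E47 -1.32 ± 0.22 (adjusted p = 0.0473). The former was lost without Snail replicate 1 (1.16, adjusted p = 0.0517), Snail replicate 2 (0.68, adjusted p = 0.141) or Slug replicate 1 (0.78, adjusted p = 0.116), and the latter without any of the 6 replicates (-1.46 to -1.18, adjusted p = 0.0629 to 0.153). ATP6V1B2 was lower in Snail than in Slug (-0.86 ± 0.19, adjusted p = 0.0332), lost without any Snail or Slug replicate (-1.02 to -0.70, adjusted p = 0.0659 to 0.12). ATP1B3 was lower in Snail than in Slug (-1.17 ± 0.20, adjusted p = 0.0134), lost without Snail replicate 1 (-0.97, adjusted p = 0.0564).

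Of the solute carriers, 4 differed between Snail and Slug, and the calls in the other pairs were all pump genes. Mitochondrial carriers gave 1 of 8 (12.5%) and organic ion carriers 1 of 4 (25%), beside a background of 13.2%. Zinc and copper carriers gave 1 of 6 (16.7%) and the mixed group of others 1 of 7 (14.3%). Sugar, amino acid, ion cotransporter, and nucleoside and thiamine carriers gave 0 of 9, 6, 1 and 4. At an unadjusted p under 0.05 in limma those families held 0, 0, 0 and 2. SLC44A1 was 1.71 ± 0.33 higher in Snail (SE, n = 2 per group; adjusted p = 0.0184; 1.72 and adjusted p = 0.0521 without Slug replicate 1), and SLC25A1 was lower in Snail (-1.07 ± 0.17, adjusted p = 0.0108; -1.03 and adjusted p = 0.0504 without Snail replicate 2). SLC39A14 was lower in Snail (-0.89 ± 0.18, adjusted p = 0.0223), lost without any Snail or Slug replicate (-1.01 to -0.78, adjusted p = 0.0532 to 0.088). SLC22A6 was higher in Snail (0.72 ± 0.19, adjusted p = 0.0449), lost without any of the 6 replicates (0.52 to 0.91, adjusted p = 0.0595 to 0.156). For SLC44A1 the Slug minus E47 difference of -1.37 did not pass (adjusted p = 0.106).

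A list of 35 other transport genes (channels, regulators, further carriers and ATPases) was read beside the members. In Snail 0 rose and 2 fell of 28 tested (7.14%, background 7.22%; 1 higher and 3 lower at an unadjusted p under 0.05), in Slug 1 rose and 6 fell of 31 (22.6%, background 21.8%), and in E47 1 rose and 2 fell of 30 (10%, background 5.3%). The shares in Snail and Slug lie at the background. FXYD3, a small regulator of the Na,K-ATPase, fell in each transfectant (-2.99 in Snail, -3.48 in Slug and -2.89 in E47). Each of these calls held in 13 of 13 alternatives. SLCO2A1, a prostaglandin transporter, was the other gene of the list called in all 3: -2.05 in Snail (adjusted p = 0.012), -1.80 in Slug (adjusted p = 0.00979) and -2.12 in E47 (adjusted p = 0.0142). Its calls were lost without Snail replicate 2 (-1.50, adjusted p = 0.188), Slug replicate 1 (-1.53, adjusted p = 0.091) and E47 replicate 2 (-1.47, adjusted p = 0.178), respectively.

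Other genes of the list passed in a single transfectant. In Slug SGK1, a kinase that acts on sodium transport, fell (-1.01, adjusted p = 0.00516; kept in 13 of 13 alternatives), and NHERF1, a scaffold of apical transporters, rose (0.51, adjusted p = 0.0299). The copper pump ATP7A (-0.58), the lipid flippase ATP8A1 (-0.46) and the chloride and proton exchanger CLCN6 (-0.72) fell in Slug as well. Without Slug replicate 1 or 2 the last 4 calls were lost, at an adjusted p of 0.225 and 0.0736 for NHERF1, 0.137 and 0.131 for ATP7A, 0.161 and 0.149 for ATP8A1, and 0.056 and 0.0503 for CLCN6; ATP8A1 was lost without either E47 replicate too (0.0565). In E47 the sodium channel gene SCN9A rose (1.05, adjusted p = 0.0269), which was lost without E47 replicate 2 (0.77, adjusted p = 0.352).

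Markers of the cells were read on the same arrays. Of 7 epithelium markers measured, 3 of 6 tested were lower in Snail (CDH1, DSP and KRT7, background 5.07%). In Slug 3 of 7 were lower (CDH1, DSP and KRT19, background 9.62%), and in E47 3 of 6 (CDH1, DSP and KRT7, background 1.49%). CDH1 is low by the choice of sign, so its place in each of these counts was fixed beforehand. KRT8 and KRT18 passed in no transfectant, at -0.40 and -0.18 in Snail, 0.23 and 0.14 in Slug, and -0.16 and -0.12 in E47. KRT7 read -0.18 in Slug. EPCAM did not pass either, with samples of -0.18 and -3 in Snail, -2.78 and -0.96 in Slug, and -0.36 and -2.69 in E47. The kidney tubule markers CDH16, PAX2 and PAX8 had 0 of 3 past the limma threshold in Snail, Slug and E47 (background 7.22%, 21.8% and 5.3%). At an unadjusted p under 0.05 there were 1, 1 and 0. Of 2 leukocyte markers, PTPRC fell in Slug (-0.66, adjusted p = 0.0129) and ITGAM read 0.17 there. Of 4 endothelium markers, TEK rose in Slug (0.62, adjusted p = 0.0361), while VWF read 0.37, KDR -0.07 and PECAM1 -0.10. Both calls were lost without Slug replicate 1 (-0.50, adjusted p = 0.141 for PTPRC, and 0.38, adjusted p = 0.299 for TEK). In Snail and E47 none of these markers passed the limma threshold (1 leukocyte marker in Snail and 1 endothelium marker in E47 at an unadjusted p under 0.05). The part of these markers in the transporter values was not tested.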

How the data were processed

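The authors' deposited table gives per probe and array the log2 ratio between the channels, centred near 0 (array medians -0.0634 to 0.0594); how they were scanned and normalized is not given in the sources used here. Signal over background is unknown, and precision is limited by how many arrays there are. Of 13056 probes, 8047 have a single symbol in the platform table, 276 several and 4733 none. The 89 genes came from 156 spots of 99 clones; 49 genes rest on 1 spot, and 73 were tested in all 6 comparisons. The dog RefSeq gene table held 81 of the 89 symbols.

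Both arrays of Snail 2 and of Slug 1 and the E47 2 array titled Cy5 were multiplied by -1. As deposited, the arrays of a transfectant that were taken to run in opposite directions correlated at -0.74 to -0.37, and those taken to run the same way at 0.26 to 0.68. Spots were averaged per clone, clones per gene, and both arrays of a numbered sample, leaving 2 replicates for each transfectant. The fit over all genes and the 3 groups used limma 3.58.1 (R 4.3.3), with no intercept (prior degrees of freedom 4.85, prior SD 0.203, residual degrees of freedom at most 3). Groups were tested against 0 and pairwise, two-sided, with Benjamini-Hochberg adjustment over all genes tested and a threshold of 0.05. Testing a ratio against 0 ignores how much the control itself varies, and the 3 comparisons with the control share it. Replicates lacking either array were left out: 9 members were not tested in Snail, 3 in Slug and 5 in E47. The script was tested on simulated data.

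The members, families, marker lists and tests were chosen with earlier results of these data known. Genes are named where they passed the threshold in any comparison, where the mean lay at least 1 log2 unit from 0 with all 4 arrays on that side, or where they encode subunits of the Na,K-ATPase, H,K-ATPase or calcium ATPases, or clones opposed in sign by over 1 (none did); untested members and CDH1 are named too. Any other gene named was chosen after its values were seen. Alternatives were leaving out each replicate, a replicate block, each titled dye alone, other scaling and centring, complete probes and equal weight per spot. Some of these leave a gene's ratios as they were. Equal weight per spot does so for a gene with 1 clone, and complete probes for a gene with 1 spot and values on all 12 arrays. Leaving out a replicate of another transfectant does not move the mean. Such settings change only the estimate of the spread and the adjustment. A planned motif count in promoters was not run. Replicate numbers are shared by the groups, but deviations from the group means correlated at only 0.02 (Snail and Slug), 0.23 (Snail and E47) and -0.06 (Slug and E47), so the numbers were not taken to pair the samples.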

Additional observations from a re-analysis of the deposited data

Results flagged for a closer look

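Single arrays stood apart from the other 3 of their transfectant in 7 of 129 sets of 4 arrays screened among the genes given with values (a gap over range above the critical value of Dixon's test, which chance gives in about 1 in 20 sets). ATP2A3 in Slug read 0.30 on the sample 2 array titled Cy3, with the others between -0.54 and -0.42. ATP2B3 in E47 read -0.60 on the sample 1 array titled Cy3, with the others between 0.10 and 0.19. SLC25A32 in Slug read -0.73 on the sample 2 array titled Cy3, with the others between -1.38 and -1.33. ABCC8 in Slug read 1.84 on the sample 1 array titled Cy3, with the others between 0.07 and 0.18. In E47, ABCC2 read 0.15 on the sample 1 array titled Cy5, with the others at -0.02 to -0.01. On the E47 sample 1 array titled Cy3, ABCC3 read -0.67, with the others at -0.03 to -0.02, and FXYD3 read -1.62, with the others between -3.41 and -3.18.

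The effects of Snail and Slug differed at a limma adjusted p under 0.05 in ATP4A (2.43), ATP6V1C1 (0.92), SLC22A6 (0.72) and SLC44A1 (1.71), higher in Snail, and in ATP1B3 (-1.17), ATP6V0C (-1.58), ATP6V0D1 (-1.31), ATP6V1B2 (-0.86), SLC25A1 (-1.07) and SLC39A14 (-0.89), lower in Snail. Snail and E47 differed in ATP6V0B (-0.97) and ATP6V0C (-1.47), lower in Snail. Slug and E47 differed in ATP4A (-1.88) and ATP6V1C1 (-1.32), lower in Slug. All are log2 differences on the assumed signs.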

How the results depend on the processing

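Of 36 calls (22 against the control, 14 between transfectants), 6 were kept in every one of 13 alternatives, 30 were lost in at least 1 and 0 changed direction. The kept calls were those of ATP4A, ATP6V0C, ATP6V0D1, SLC25A32 and SLC44A1 in Slug and of ATP4A between Snail and Slug. ATP4A, ATP6V0D1 and SLC44A1 rest on 1 spot each, and ATP6V0C and SLC25A32 on 2 and 4 spots of 1 clone. Leaving out 1 replicate gave 0 to 4 transporter genes in Snail (3 with all samples), 6 to 15 in Slug (13), 0 to 6 in E47 (6), 3 to 10 in Snail against Slug (10), 0 to 2 in Snail against E47 (2) and 0 to 2 in Slug against E47 (2); where the count was 0, limma gave 8 to 14 genes at an unadjusted p under 0.05. Arrays titled Cy3 alone gave 0, 5, 0, 1, 0 and 0 in the same order (10, 8, 7 and 12 at an unadjusted p under 0.05 in limma where the count was 0), and arrays titled Cy5 alone gave 0 in Snail (10 unadjusted) and 1 in Snail against E47. With all arrays scaled to 1 spread there were 5 in Snail (1 higher, 4 lower), 6 in Slug, 7 in Snail against Slug (2 higher, 5 lower), 5 in Snail against E47 (1 higher, 4 lower) and 0 in Slug against E47 (13 unadjusted). Array medians set to 0 gave 3 in Snail (1 higher, 2 lower) and 1 in Snail against E47. Probes with values on all 12 arrays gave 6 in Snail and 5 in Snail against E47. With the replicate block the counts were 4, 15, 6, 10, 1 and 2, and 33 of 36 calls were kept. The block ended the calls of ATP6V0B in E47 (adjusted p = 0.0563), of ATP6V0B between Snail and E47 (0.0525) and of SLC68A1 in Slug (0.0555). It put past the threshold ATP1B3 in Snail (0.0445), ATP6V1C1 in Slug (0.0316), ABCB1 in Slug (0.047) and SLC37A3 in E47 (0.0492). Turning the sign of a transfectant was not among the 13 alternatives, so the numbers of calls kept and of changed directions do not cover it. With Slug turned, Snail against Slug gave 6 genes, of which 3 were among the 10 called on the assumed signs. With E47 turned, Snail against E47 gave 4, with 0 shared, and Slug against E47 gave 17, with 1 shared. The single-dye settings hold fewer arrays and the complete-probe setting fewer probes; the cause of the other shifts was not tested. Precision is limited by 2 samples per transfectant, by the 49 of 89 genes that rest on 1 spot, and by the unknown signal over background.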
